A study of Sus scrofa with 92 samples.

Results

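The 4 apolipoprotein genes APOA1, APOA2, APOC3 and APOE were followed through 92 RNA sequencing libraries of pigs. They are 4 of 25322 gene IDs in the expression tables, taken by symbol, with 1 Ensembl ID for each: ENSSSCG00000030921 for APOA1, ENSSSCG00000006355 for APOA2, ENSSSCG00000015069 for APOC3 and ENSSSCG00000003088 for APOE. The pigs were 60 days old and of 10 breeds. The Chinese breeds were Meishan, Bamei, Rongchang, Jinhua and Tibetan wild boar, and the Western breeds Piétrain, Landrace, Hampshire, Large White and Berkshire. The assignment to an origin is general knowledge and not a label. Tissue libraries number 83, with 9 each from liver, heart, kidney, subcutaneous adipose and ovary, 10 each from spleen, psoas major and longissimus dorsi, and 8 from lung. A further 9 libraries were mixtures of tissues of 1 breed whose composition the labels do not give. Each breed had 1 library per tissue, so the breeds are the replicates, and the labels do not say whether animals were pooled or whether all tissues of a breed came from the same animal. No lung of Rongchang was in the set, and of Tibetan wild boar the set held spleen and the 2 skeletal muscles.

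Apolipoproteins are the protein coat of the particles that carry fat and cholesterol in blood. APOA1 is the main protein of high-density lipoprotein (HDL) and activates the enzyme that esterifies its cholesterol, and APOA2 is the second protein of that particle. APOC3 sits on triglyceride-rich particles and slows their breakdown and their uptake by the liver. APOE is the ligand through which remnant particles bind receptors of the LDL receptor family. In mammals the liver makes most of all 4. APOE is also made by macrophages, adipocytes and astrocytes, and in human and mouse APOA1 and APOC3 are made by the small intestine as well. In the Sscrofa11.1 RefSeq annotation APOC3 and APOA1 are direct neighbours, next to APOA4, APOA5 and ZPR1, while APOE lies between TOMM40 and APOC4 and APOA2 between TOMM40L and FCER1G.

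Levels are given as scaled FPKM, fragments per length of gene and size of library, divided here by 1 factor per library so that the typical gene has the same level in each. FPKM is per length, and levels of different genes are set side by side here on that footing. Whether the estimates of different genes are comparable was not tested, so rankings and ratios between genes hold only as far as those estimates do. The depth behind a value is unknown and a 0 can be a failed estimate, so a value of 0, those of APOA2 and APOC3 counted and fitted here included, says only that the gene was listed at 0. The tissue labels were checked by markers. Summed levels of the lists for heart, spleen and B cell, lung, kidney and ovary were highest in the tissue they name, and the skeletal muscle list was highest in the 2 muscles. Of 15 hepatocyte markers matched, 14 were called for liver, and ALB was listed at 0 in all 9 livers.

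All 4 genes were highest in liver. The liver median was 31745 scaled FPKM for APOC3, 18130 for APOE, 8856 for APOA1 and 3745 for APOA2. Together the 4 genes took a median 6.25% of the summed FPKM of a liver library (range 5.24 to 7.68%), against 0.320% in subcutaneous adipose and 0.00335% in psoas major. The liver sums hold no ALB, as given above, so the liver share can be too high. Summed FPKM also differed between libraries, from 519075 to 2196138. Each of the 4 was called for liver, which requires a log2 difference above 1 and an adjusted p below 0.05 against every other tissue (limma with breed as block, Benjamini-Hochberg). Of 17207 genes tested, 847 were called for liver, or 4.92%.

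**Figure D1:**
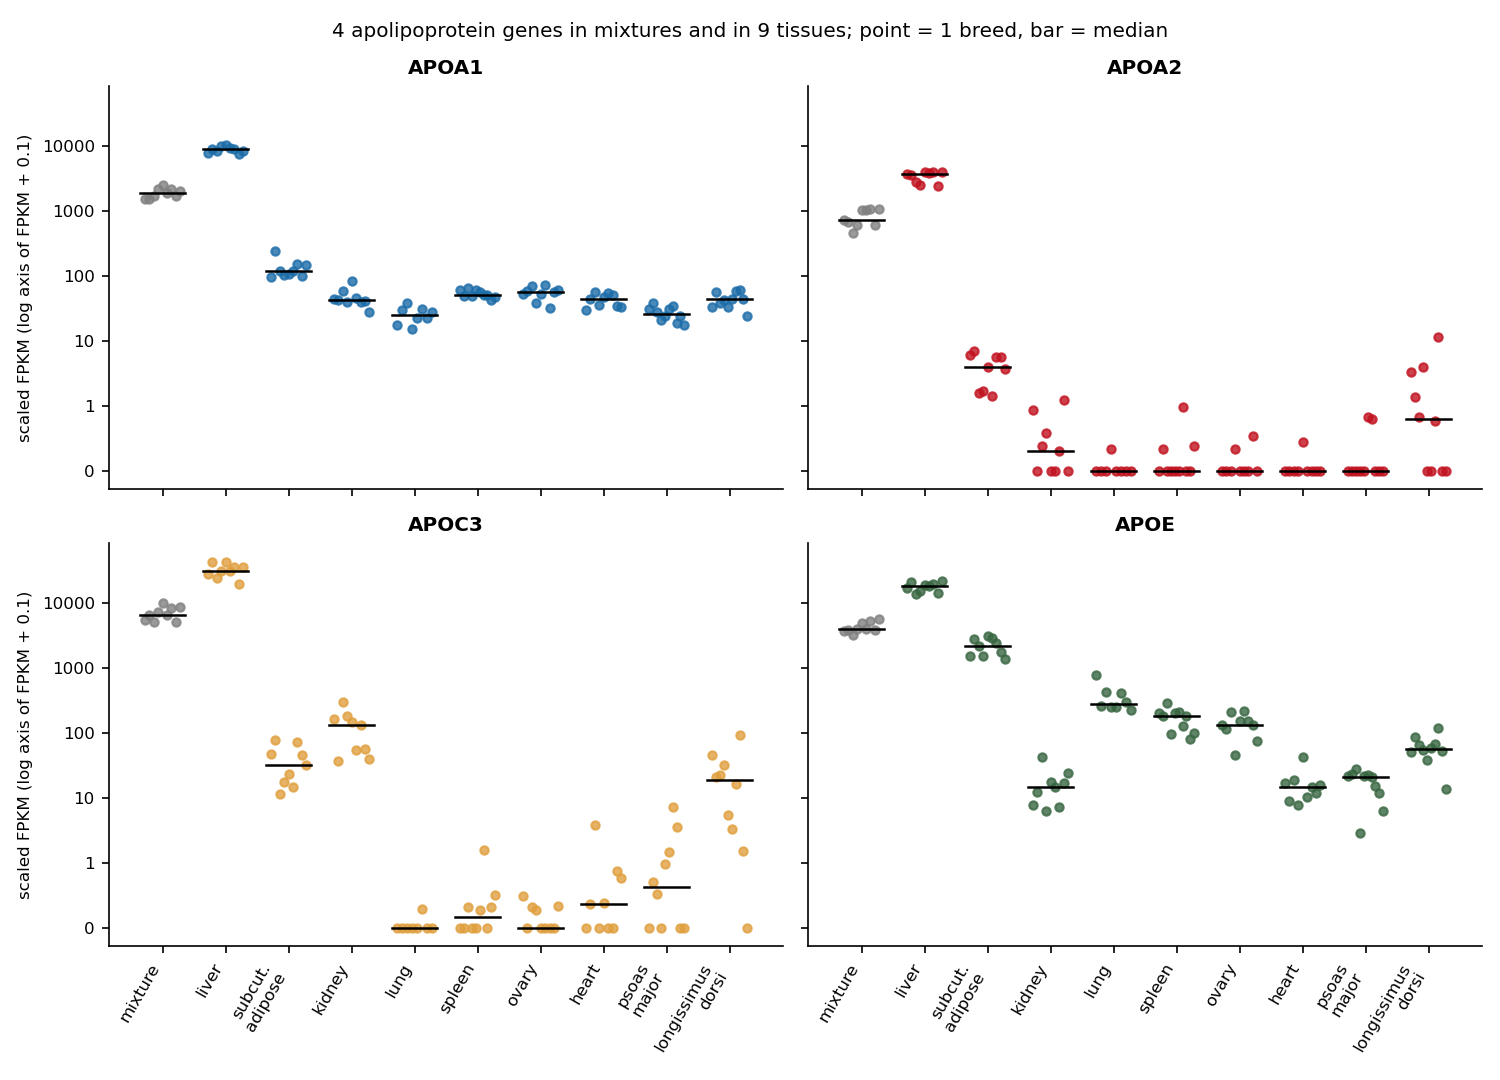
Scaled FPKM of the 4 genes on a log axis (FPKM plus 0.1) in the 9 mixtures and in each tissue; a point is 1 breed and a bar the median. APOA1 was above 0 in every library, APOA2 and APOC3 were at or near 0 in lung, spleen, ovary and heart, and APOE had intermediate levels in subcutaneous adipose, lung, spleen and ovary.

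APOA1 was above 0 in every library of every tissue. In liver it ran from 7453 to 10227 scaled FPKM, with a mean of 8796 ± 925 (SD, n = 9), a coefficient of variation of 10.5%, against 16.2% for APOE, an order that turned on FPKM as deposited (13.3% for APOA1 and 12.5% for APOE). Subcutaneous adipose followed at 97.2 to 237 (median 118), with Berkshire highest. The gap of liver over subcutaneous adipose was 6.12 ± 0.15 on the log2 scale (SE, limma adjusted p = 9.08e-49, in a pair in which 68.4% of all genes tested differed), and no liver overlapped any library of another tissue. Below adipose the levels were close together. The median was 56.9 in ovary, 49.8 in spleen, 43.2 in longissimus dorsi, 43.1 in heart, 42.3 in kidney, 25.6 in psoas major and 24.6 in lung. The lowest single value was 14.8, in lung.

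Neighbours in that order were compared in the fit of all 83 tissue libraries. Most genes differ between most tissues, so the share of all genes tested that differed is given with each pair. APOA1 was higher in subcutaneous adipose than in ovary, by 1.23 ± 0.15 log2 (adjusted p = 9.22e-12, limma; 74.6% of all genes). It was also higher in kidney than in psoas major, by 0.72 ± 0.14 log2 (adjusted p = 7.73e-06, limma; 68.9% of all genes). Ovary and spleen, longissimus dorsi and heart, heart and kidney, and psoas major and lung did not differ beyond their spread, with adjusted p of 0.755, 0.774, 0.528 and 0.338 (limma). Spleen was above longissimus dorsi by 0.33 ± 0.14 log2 (adjusted p = 0.0286, limma; 71.9% of all genes), a call lost without Hampshire (0.0878), Landrace (0.0839), Bamei (0.0936) or Tibetan wild boar (0.108), and with no breed block (0.0554). On FPKM as deposited those 3 differences were 0.63, 1.65 and 1.41 log2, in the same direction and called. The pairs that did not differ depend on the scaling. As deposited, the APOA1 median was 37.4 in lung against 15.7 in psoas major, and 52.9 in kidney against 36.1 in heart. It was 27.2 in longissimus dorsi, 92.9 in ovary and 68.2 in spleen. By those medians psoas major, not lung, was lowest.

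APOA2 had the lowest liver level of the 4 and the widest gap between liver and the next tissue. Its liver values ran from 2411 in Piétrain through a median of 3745 to 4021 in Landrace. The mean was 3423 ± 656 (SD, n = 9). Piétrain, Jinhua and Hampshire were lowest at 2411, 2524 and 2779, and the other 6 livers were at 3618 or more. Subcutaneous adipose was the only other tissue in which every library was above 0, at 1.30 to 6.87 (median 3.77). Liver exceeded it by 9.55 ± 0.24 log2 (adjusted p = 4.74e-47, limma). In longissimus dorsi 6 of 10 libraries were above 0, with a median of 0.529 and a highest value of 11.3 in Piétrain. In kidney 5 of 9 were above 0, the highest at 1.11. In heart, lung, spleen, ovary and psoas major the median was 0, and no library reached 1 scaled FPKM.

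Subcutaneous adipose was above longissimus dorsi for APOA2 by 1.08 ± 0.24 log2 (adjusted p = 4.91e-05, limma; 64.1% of all genes differed). Longissimus dorsi was above kidney by 0.79 ± 0.24 log2 (adjusted p = 0.00243, limma; 70.1% of all genes). The fit adds 1 to each value before taking logarithms, which understates differences at this level: with 0.1 added they were 2.385 and 1.499 log2. From kidney downward no neighbours differed beyond their spread, the smallest adjusted p being 0.675 (limma).

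APOC3 had the highest liver level of the 4, and its second tissue was the kidney. Liver values ran from 19960 in Piétrain through a median of 31745 to 43538 in Berkshire, with a mean of 32523 ± 7732 (SD, n = 9). Kidney values ran from 37.3 in Berkshire through a median of 135 to 301 in Hampshire. Liver exceeded kidney by 8.32 ± 0.43 log2 (adjusted p = 1.03e-27, limma; 67.3% of all genes differed). The breed order of the kidneys was not that of the livers: Berkshire had the highest liver and the lowest kidney value, and Hampshire, with the highest kidney, had the second lowest liver at 24529.

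Subcutaneous adipose followed kidney for APOC3, at 11.6 to 78.4 (median 31.8). Longissimus dorsi ran from 0 in Tibetan wild boar through a median of 18.6 to 92.2 in Piétrain. Kidney was above subcutaneous adipose by 1.62 ± 0.43 log2 (adjusted p = 0.000734, limma; 65.7% of all genes), although single libraries of the 2 tissues overlapped. Adipose was above longissimus dorsi by 1.22 ± 0.43 log2 (adjusted p = 0.00965, limma), a call lost without Rongchang (adjusted p = 0.0668, limma). Longissimus dorsi in turn was above psoas major by 2.81 ± 0.41 log2 (adjusted p = 3.49e-07, limma; 16.5% of all genes). In psoas major, heart, spleen, ovary and lung the medians were 0.323, 0.136, 0.0459, 0 and 0. Neighbours among those 5 did not differ beyond their spread, with adjusted p of 0.323 or more (limma).

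APOE was above 0 in every library and had the highest second tissue of the 4. Liver values ran from 13825 in Hampshire to 21968 in Rongchang, with a mean of 17819 ± 2884 (SD, n = 9). Subcutaneous adipose was second at 1385 to 3137 (median 2201), 3.08 ± 0.26 log2 below liver (adjusted p = 1.30e-17, limma), the smallest of the gaps between liver and the next tissue among the 4. In heart, kidney and psoas major its median was below that of APOA1. Lung had a median of 281, with Bamei highest at 794, spleen a median of 182 and ovary a median of 135. Longissimus dorsi had a median of 57.3, psoas major of 21.3, kidney of 14.8 and heart of 14.6.

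For APOE subcutaneous adipose was above lung by 2.66 ± 0.27 log2 (adjusted p = 3.78e-14, limma; 63.2% of all genes differed). Lung was above spleen by 0.93 ± 0.26 log2 (adjusted p = 0.00146, limma; 62.1%). Ovary was above longissimus dorsi by 1.05 ± 0.25 log2 (adjusted p = 0.000149, limma; 77.7%), and by 2.41 log2 on FPKM as deposited. Longissimus dorsi was above psoas major by 1.79 ± 0.24 log2 (adjusted p = 6.52e-08, limma). Spleen and ovary did not differ beyond their spread (adjusted p = 0.0909, limma), and neither did psoas major and kidney (0.459) or kidney and heart (0.935). The proportions of the genes to each other were not the same in every tissue. In liver APOE stood at a median 1.99 times APOA1, against 15.7 times in subcutaneous adipose, 12.5 times in lung and 0.291 times in kidney. APOC3 stood at 3.57 times APOA1 in liver, against 1.73 times in kidney and 0.224 times in subcutaneous adipose.

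Macrophages, one of the known sources of APOE, were followed by 8 matched markers. Their summed level had a median of 2798 in spleen (range 2033 to 3886) and 2083 in lung (range 1647 to 3102), against 1367 in liver, 499 in subcutaneous adipose, 99.8 in ovary and 73.0 in kidney. By medians spleen had a higher macrophage sum than lung and a lower APOE level, but the order of the tissues depended on the marker. MARCO was called for lung, 2.04 log2 above spleen, CSF1R for spleen, 1.18 log2 above lung, and CD14 for liver. The sum of 6 matched adipocyte markers was 2740 in subcutaneous adipose, against 567 in lung and 405 in longissimus dorsi. Their part in the APOE levels was not tested, and in bulk tissue more cells of a type and more RNA per cell cannot be told apart.

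Other genes of lipoprotein metabolism were read from 4 lists of 56 symbols, of which 39 were matched. Of these 39, 17 were called for liver, where 4.92% of all genes were. Another 3 were called for subcutaneous adipose, where 1.59% of all genes were, and 1 for kidney, where 2.66% were. Of the 4 matched apolipoproteins outside the members, APOB, APOF and APOM were called for liver and APOD for subcutaneous adipose. The smallest log2 difference of liver over another tissue was 7.02 for APOF and 6.77 for APOB, the structural protein of LDL. It was 6.26 for LIPC, hepatic lipase, and 6.15 for LCAT, the enzyme that APOA1 activates, at a liver median of 191 scaled FPKM. The transcription factors of the lists called for liver were FOXA2, FOXA3, ONECUT1, CREB3L3, NR1H4, NR0B2 and PPARA. CUBN, the endocytic receptor through which the kidney takes up APOA1, was called for kidney with a median of 117 scaled FPKM in kidney, against 0.0264 in liver. MTTP, which loads lipid onto APOB, had a median of 107 in liver, against 0.606 in kidney, the tissue with the second highest APOC3.

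For each member the 5 genes whose level over the 83 tissue libraries was most like it were sought among 10586 genes with a symbol. For APOA1 they were APOA2, PLG, KLKB1, TDO2 and CYP2E1, with Pearson r of log2 levels from 0.969 to 0.971. For APOA2 they were CYP2E1, PLG, LECT2, FGB and ZPR1 (0.989 to 0.995). For APOC3 they were TTR, GC, HRG, HPX and PROC (0.939 to 0.986). TTR encodes the carrier of thyroid hormone and retinol-binding protein, and it had, like APOC3, its second highest level in kidney, at a median of 57.0 scaled FPKM. For APOE they were SERPING1, CALD1, C2, C4A and PYGL (0.875 to 0.941), 3 of which (SERPING1, C2, C4A) belong to or restrain the complement system. The libraries share 9 tissues, so these coefficients describe tissue profiles. By Spearman correlation 3 of the 5 genes of APOC3, 3 of APOE and none of APOA1 and APOA2 were again among the first 5. C4A was then among the first 5 of APOA1 and not of APOE. The share of complement genes among all genes ranked was not taken.

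Low levels outside the liver were then set beside 14 hepatocyte markers (ALB left out), each as a percent of the liver of the same breed. In subcutaneous adipose APOA2 stood at a median 0.0939% and APOC3 at 0.0894% of liver. The medians of the 14 markers there ran from 0.0530 to 0.245%. APOC3 lay within the range of the 14 markers in 9 of 9 adipose libraries and APOA2 in 8 of 9. APOA1, at 1.33%, and APOE, at 12.4%, lay above every one of the 14 markers in 9 of 9. APOE was a median 138 times and APOA1 16.4 times the median marker of its library, against 1.10 times for APOC3 and 1.11 times for APOA2.

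APOC3 also lay beside the markers in longissimus dorsi, where the hepatocyte markers varied strongly between breeds. In Piétrain APOC3 stood at 0.462% and APOA2 at 0.469% of the Piétrain liver, with the 14 markers at 0.313 to 0.512%. In Bamei APOC3 stood at 0.164% (marker median 0.121%), in Jinhua at 0.102% (0.118%) and in Hampshire at 0.0912% (0.0669%). In Large White APOC3 stood at 0.0103% (0.0131%) and in Rongchang at 0.00408% (0.00342%). APOC3 lay within the marker range in 8 of 9 breeds with a liver and just below it in Meishan, and its ratio to the marker median ran from 0.671 to 1.36. APOA2 lay within the range in 4 breeds, above it in Jinhua and below it in 4. APOA1 was above all 14 markers in 9 of 9 breeds and APOE in 8 of 9, Landrace being the exception at 0.204% with its highest marker at 0.217%.

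In kidney the picture differed between members. APOC3 stood at a median 0.344% of liver and at 5.53 times the median marker (range 1.997 to 22.4). It still lay within the marker range in 9 of 9 kidneys, since TTR stood at 0.521% and F2 at 1.12% there. APOA1, at 0.490%, and APOE, at 0.0817%, lay within that range in 9 of 9 as well. APOA2 stood at 0.00266% of liver and was listed at 0 in 4 kidneys. CYP2E1 was listed at 0 in 8 of 9 kidneys, against 0 of 9 adipose libraries. Other markers differed from it: AHSG, FGG, FGB, HPX, AMBP, SERPINC1, TF, TTR and F2 were above 0 in 9 of 9 kidneys. The lowest kidney value among these was 0.00136% of liver, for AHSG. Whether RNA of liver or of other cells contributes to APOC3 and APOA2 in any of these tissues was not tested.

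**Figure D2:**
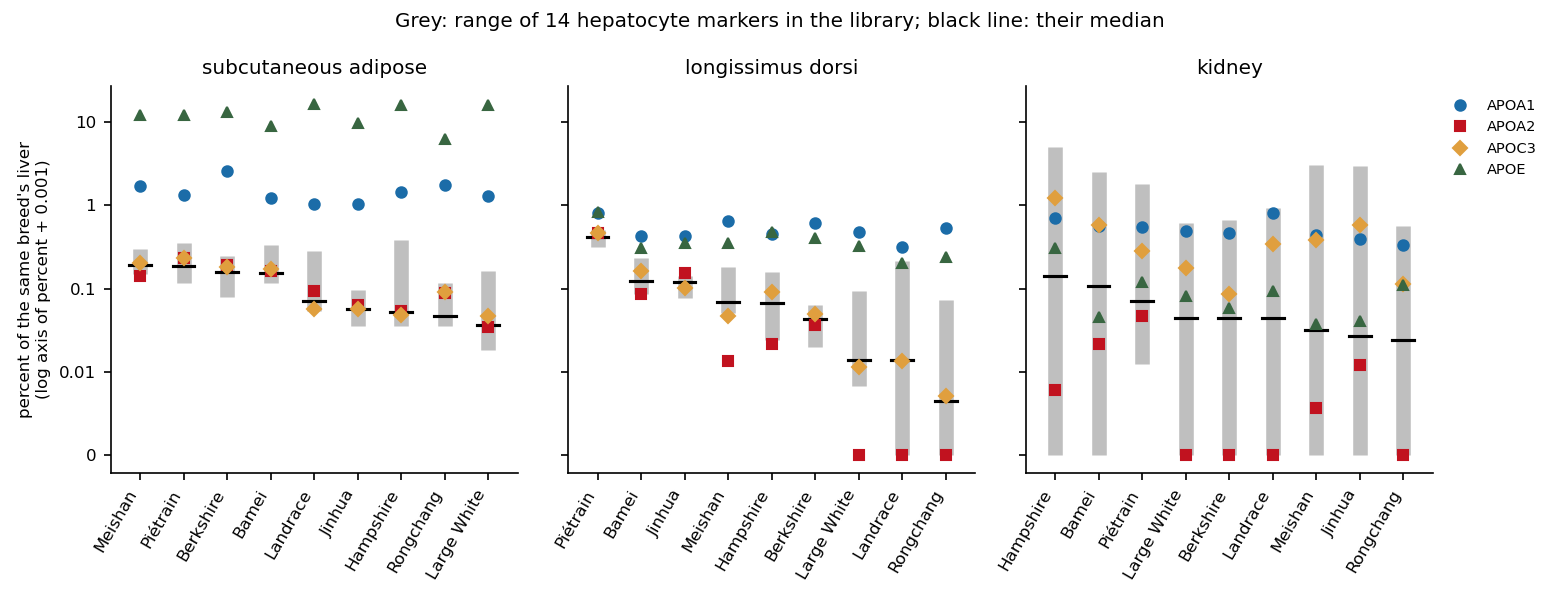
Level of each gene as a percent of the same breed's liver (log axis, percent plus 0.001) in subcutaneous adipose, longissimus dorsi and kidney of 9 breeds; the grey bar is the range and the black line the median of 14 hepatocyte markers in that library. In adipose and longissimus dorsi APOC3 lay mostly inside the grey bars and APOA1 and APOE mostly above them, APOA2 lay inside in 8 of 9 adipose and 4 of 9 longissimus dorsi libraries, and breeds are ordered by the marker median.

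Psoas major and longissimus dorsi, 2 skeletal muscles of the same 10 breeds, differed in 3 of the 4 genes in a fit of these muscles alone. All 3 were lower in psoas major. APOA1 and APOE reached 1 FPKM as deposited in all 10 libraries of both muscles. APOC3 did so in 2 psoas major and 8 longissimus dorsi libraries, and APOA2 in 0 and 3. Those 2 genes passed the filter only with longissimus dorsi counted, which favours a lower level in psoas major. The background is large: of 12112 genes tested, 15.1% were lower in psoas major and 12.7% higher, 27.7% in either direction. APOE was 2.75 to 27.8 scaled FPKM in psoas major (median 21.3), against 13.5 to 119 in longissimus dorsi (median 57.3). It was lower in psoas major in 10 of 10 breeds, by 1.73 ± 0.26 on the log2 scale (adjusted p = 0.00116, limma with breed as block).

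APOC3 ranged from 0 to 7.30 in psoas major, with 4 libraries listed at 0, against 0 to 92.2 in longissimus dorsi. It was lower in psoas major in 9 of 10 breeds and listed at 0 in both muscles of Tibetan wild boar, and the log2 difference was -2.48 ± 0.56 (adjusted p = 0.0102, limma). APOA1 was 17.1 to 38.2 in psoas major (median 25.6), against 24.1 to 60.7 in longissimus dorsi (median 43.2). It was lower in psoas major in 10 of 10 breeds, by 0.65 ± 0.11 on the log2 scale (adjusted p = 0.00166, limma), the smallest of the 3 differences. Piétrain had the widest gap for APOA1, at 18.8 in psoas major against 60.7 in longissimus dorsi. APOA2 was above 0 in 2 psoas major libraries and 6 longissimus dorsi libraries. It was lower in psoas major in 5 breeds, higher in 2 and at 0 in both in 3, and the difference did not pass (-0.72 ± 0.31, adjusted p = 0.114, limma). The fits disagree on APOA2: in that of all 83 tissue libraries, which share 1 estimate of the spread, it was called lower in psoas major (-0.91 ± 0.23 log2, adjusted p = 0.00273, limma).

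Markers of several cell types also differed between the muscles. The summed level of 15 hepatocyte markers was 1.94 to 24.6 in psoas major (median 2.74), against 1.56 to 368 in longissimus dorsi (median 61.0). Of 9 hepatocyte markers that passed the filter, 8 were lower in psoas major, with a median log2 difference of -1.38 over the 9, against -0.01 over all genes. Filtered in each muscle alone, 2 hepatocyte markers passed in psoas major and 9 in longissimus dorsi. The filter thus mostly admitted markers through longissimus dorsi, where they are high, so the count of lower markers is no test of direction. Piétrain, the breed with the highest APOA1, APOA2, APOC3 and APOE in longissimus dorsi, also had the highest hepatocyte sum there, and Tibetan wild boar, with the lowest of all 4 or at 0, had the lowest. Of the 7 tested macrophage markers 5 were lower in psoas major (median -0.26), and of the 6 adipocyte markers 4 were lower (median -0.77). Of 5 skeletal muscle markers 3 were lower as well (median -0.35), so this was not particular to markers of other cell types. Of 2 astrocyte markers tested 1 was higher and 1 lower. The part of any of these cell types in the differences was not tested.

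**Figure D3:**
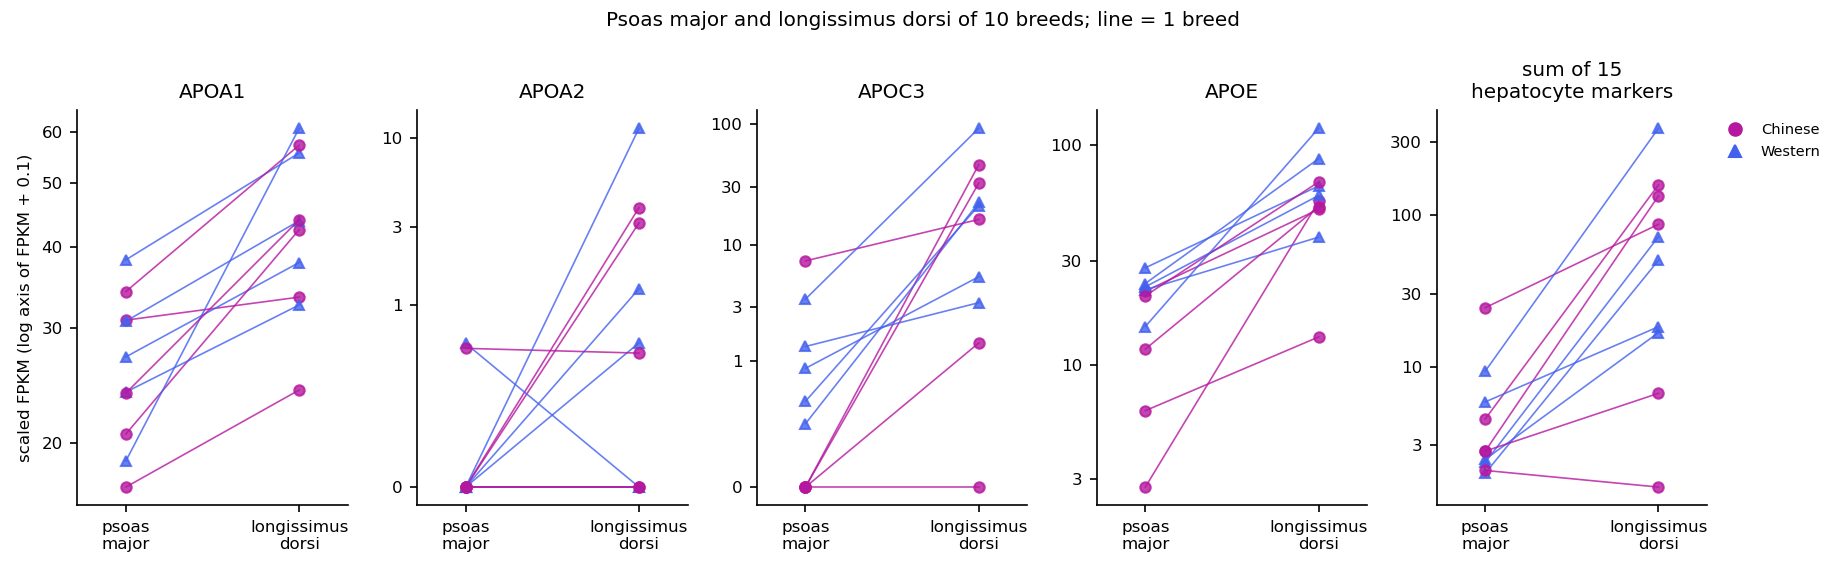
Scaled FPKM (log axis, FPKM plus 0.1) of the 4 genes and of the sum of 15 hepatocyte markers in psoas major and longissimus dorsi; a line joins the 2 muscles of 1 breed, circles are Chinese and triangles Western breeds. APOA1 and APOE were lower in psoas major in all 10 breeds, and the hepatocyte sum in 9 of 10.

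Of the 39 matched lipoprotein genes 22 were tested between the muscles, of which 2 were higher, 3 lower and 17 not called. Of all 12112 genes tested 12.7% were higher and 15.1% lower, so the lists did not stand out from the background. PPARA, the fatty acid-sensing nuclear receptor, was higher in psoas major by 0.73 log2 (adjusted p = 0.0121, limma), and NR0B2 by 0.43 log2 (adjusted p = 0.0128, limma). APOD, which carries small lipids, was lower by 0.50 on the log2 scale, and so were the oxysterol receptor NR1H3, by 0.29, and the sterol regulator SREBF2, by 0.22 (adjusted p = 0.00235, 0.0309 and 0.0260, limma). All 5 calls were lost with no breed block (adjusted p of 0.0788, 0.139, 0.334, 0.445 and 0.412), while those of APOA1, APOC3 and APOE held (0.0248, 0.0250 and 0.00685). NR1H3 was also lost without Hampshire, Landrace, Large White, Bamei, Jinhua or Meishan, and SREBF2 without Berkshire, Large White, Piétrain or Meishan, with adjusted p up to 0.0707.

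Within a tissue the 4 genes were compared over the breeds, with 12 pairwise relations in liver and longissimus dorsi. In liver APOC3 and APOE were correlated over 9 breeds (Pearson r = 0.83, exact permutation p adjusted over the 12 relations 0.0168, and Spearman rho = 0.85, adjusted p = 0.0243 by the same exact test). APOA2 and APOE had r = 0.81 (adjusted exact permutation p = 0.0258) and rho = 0.72 (0.111). Without the 2 livers farthest from the median of the first-named gene, APOC3 or APOA2, r was 0.75 and 0.77. Far values of the second gene were not considered. The number of liver pairs that passed fell to 0 without Piétrain, to 1 without Landrace, Large White or Meishan, and was 4 without Jinhua. Genes of a library share its scaling factor, the values given here all include it, and its part in each r was not separated.

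In longissimus dorsi APOA1 and APOE had r = 0.90 over 10 breeds (adjusted permutation p = 0.00108) and rho = 0.88 (0.0099). Without the 2 libraries farthest from the median of the first-named gene, here APOA1, r was 0.80, and the farthest libraries below were chosen likewise. APOA2 and APOC3 had r = 0.85 (adjusted permutation p = 0.0110), rho = 0.94 (0.00168) and r = 0.83 without the 2 farthest. APOC3 and APOE had r = 0.77 (adjusted permutation p = 0.0168) and rho = 0.52 (0.200), and r = 0.59 without the 2 farthest, so that relation rests on few libraries. The hepatocyte markers varied over the same libraries, as given above.

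The mixtures held all 4 genes at levels between liver and the other tissues. APOC3 ranged from 5120 to 10197 scaled FPKM in the 9 mixtures (median 6629), APOE from 3210 to 5758 (median 3934), APOA1 from 1501 to 2523 (median 1853) and APOA2 from 454 to 1073 (median 729). As a percent of the liver of the same breed the medians were close to each other, at 21.4% for APOA1, 23.0% for APOC3, 25.2% for APOE and 25.3% for APOA2. The medians of the 14 hepatocyte markers were 19.1 to 24.2% in the same mixtures.

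In the 8 breeds with a full set, the level in the mixture was also set against the average of that breed's 9 tissue libraries. All 4 genes were higher in the mixture in 8 of 8 breeds. The log2 difference was 1.02 ± 0.09 for APOA2, 0.93 ± 0.09 for APOC3, 0.86 ± 0.07 for APOA1 and 0.85 ± 0.08 for APOE (adjusted p of 1.09e-05, 1.35e-05, 8.04e-06 and 1.13e-05, limma). Of 17284 genes tested 17.4% were higher in the mixture and 47.5% lower, 65% in either direction, and the median over all genes was -0.13. Liver made up a median 99.8% of the summed level of the 9 tissues for APOA2, 99.3% for APOC3, 95.3% for APOA1 and 85.6% for APOE. The size of the difference depends on the reference: against the mean of the log2 values it was 4.46 for APOA1, 7.79 for APOA2, 9.06 for APOC3 and 4.64 for APOE. On FPKM as deposited it was 1.44, 1.64, 1.55 and 1.34 in the same gene order. Under quantile normalization APOA1 and APOA2 were 1.45 and 1.87 log2 higher, while APOC3 was 0.29 log2 above the mean of the tissues and did not pass (adjusted p = 0.293, limma).

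**Figure D4:**
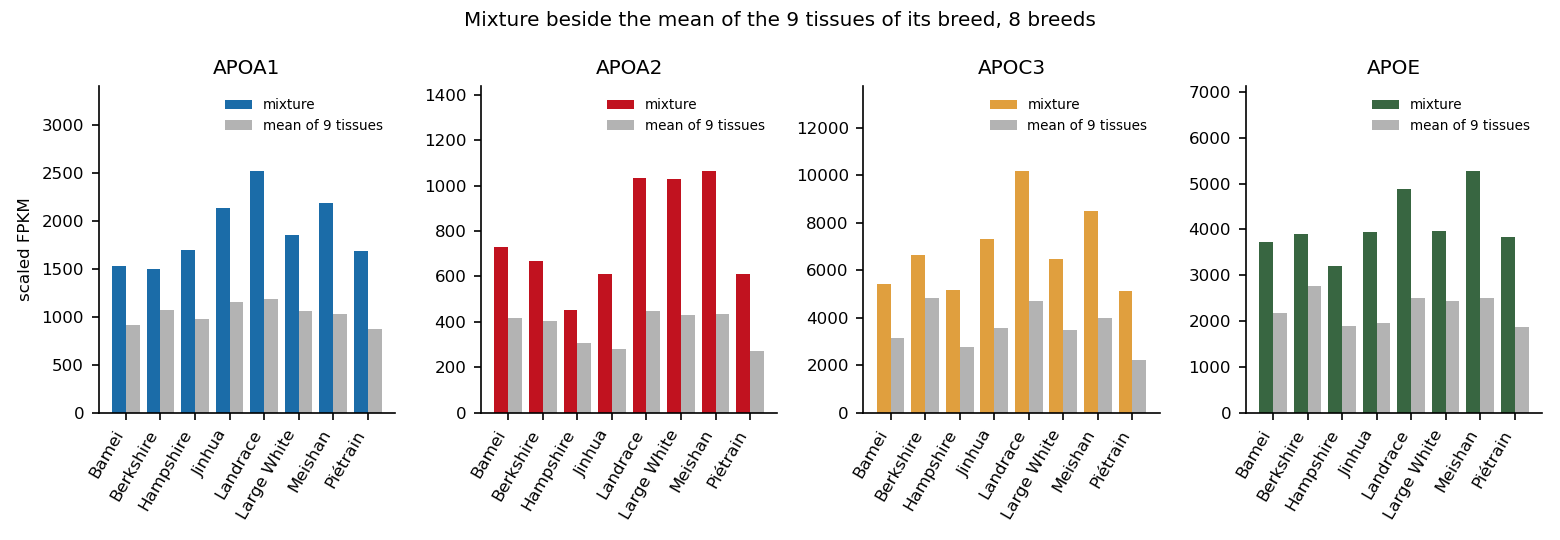
Scaled FPKM of the 4 genes in the mixture (coloured bars) and as the mean of the 9 tissues (grey bars) of the same breed, for 8 breeds. The coloured bar was higher in every breed, by 1.37 to 2.45 times.

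Of the 39 lipoprotein genes, 22 were higher in the mixtures, 8 lower and 9 not called. Of all 17284 genes tested 17.4% were higher and 47.5% lower. Among the larger increases were those of CUBN (1.11 log2), APOF (0.93), CREB3L3 (0.91) and MTTP (0.91). The largest decreases were those of APOD, VLDLR, PPARG, ANGPTL4 and CEBPA, which fell by 2.205, 1.25, 1.22, 0.64 and 0.42 on the log2 scale. Against the mean of the log2 values ANGPTL4 and CEBPA were at 0.07 and 0.84 instead, and APOD, at -0.19, did not pass (adjusted p = 0.273, limma). Of 15 hepatocyte markers 14 were higher (median 0.93 log2), as were 4 of 4 astrocyte and 4 of 4 neuron markers (medians 3.15 and 3.14), while 6 of 6 adipocyte markers were lower (median -2.22). Neuron markers summed to 35.9 to 133 in the mixtures (median 88.9), against a median of 37.7 in spleen. Ovary markers summed to 0.0155 to 0.531 in the mixtures, against 159 to 839 in ovary. Which tissues went into the mixtures is not given, and their part in the 4 levels was not tested.

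For the comparison of 4 Chinese with 5 Western breeds, each breed entered with 1 value, its log2 level averaged across all tissues but lung. None of the 4 genes was called. At an unadjusted p under 0.05 (limma) APOA1 and APOE passed, a threshold at which the share of all genes was not taken. Of 16996 genes tested 53 were called, or 0.312%. APOE came closest, at -0.55 ± 0.17 log2 in Chinese minus Western breeds (unadjusted p = 0.00964, adjusted p = 0.376, limma), and at -0.35 without Jinhua. Its mean log2 level was 6.24 in Jinhua, 6.88 in Rongchang, 7.04 in Bamei and 7.10 in Meishan, against 7.19 in Piétrain, 7.23 in Berkshire, 7.32 in Large White, 7.46 in Landrace and 7.61 in Hampshire. The groups did not overlap, which held with Chinese breeds lower for 1.77% of all genes tested. APOA1 differed by -0.20 ± 0.08 (adjusted p = 0.528), APOA2 by 0.07 ± 0.14 (0.956) and APOC3 by 0.06 ± 0.23 log2 (0.984, all limma), and their groups overlapped.

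In single tissues the members passed the filter in 25 combinations of gene and tissue, and none was called. In simulated data the liver fit recovered 51% of genes changed by 1 log2, so a difference of that size can be missed. Of all genes tested 0.136% were called in liver, 0.23% in heart, 0% in spleen, 0.164% in lung, 0.221% in kidney, 0.0261% in psoas major, 0.0432% in longissimus dorsi, 0.0929% in subcutaneous adipose and 0.0735% in ovary. These shares rest on few genes and moved when 1 breed was left out: in spleen 12 genes were higher and 24 lower in Chinese breeds without Berkshire, against 0 and 0, and in ovary 33 were higher and 32 lower without Meishan, against 3 and 8. APOE was lower in Chinese breeds in 7 of 9 tissues, with liver and lung the exceptions, but in heart the direction turned without Landrace or Jinhua and in lung without Bamei. In spleen APOE was 81.0 to 206 scaled FPKM in 5 Chinese breeds (median 98.7), against 180 to 286 in 5 Western breeds, with Bamei alone overlapping. The log2 difference there was -0.84 ± 0.23 (unadjusted p = 0.00373, adjusted p = 0.709, limma). In subcutaneous adipose APOE was 1385 to 2400 in 4 Chinese breeds, against 1755 to 3137 in 5 Western breeds (-0.59 ± 0.22 log2, adjusted p = 0.530, limma). In liver it was 15604 to 21968 in Chinese breeds, against 13825 to 21376 in Western breeds (0.10 ± 0.20 log2, adjusted p = 0.999, limma).

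APOA1 was lower in Chinese breeds in lung by 0.68 on the log2 scale (unadjusted p = 0.00515, adjusted p = 0.334, limma) and in ovary by 0.48 (unadjusted p = 0.0254, adjusted p = 0.692, limma), with neither called. In all, 6 of the 25 had an unadjusted p under 0.05 (limma), a threshold at which the share of all genes was not taken. The 25 tests, 9 of them of APOE, reuse the same breeds and are not independent, so no conclusion is drawn from that count. A test of whether the tissue profile differs by origin called none of the 4 (adjusted p = 1 for each, limma F test), where 2.42% of 16996 genes were called. Of the 39 lipoprotein genes none was called over the 8 tissues either. The p-values cover the spread between these breeds, of which each gave 1 library per tissue.

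**Figure D5:**
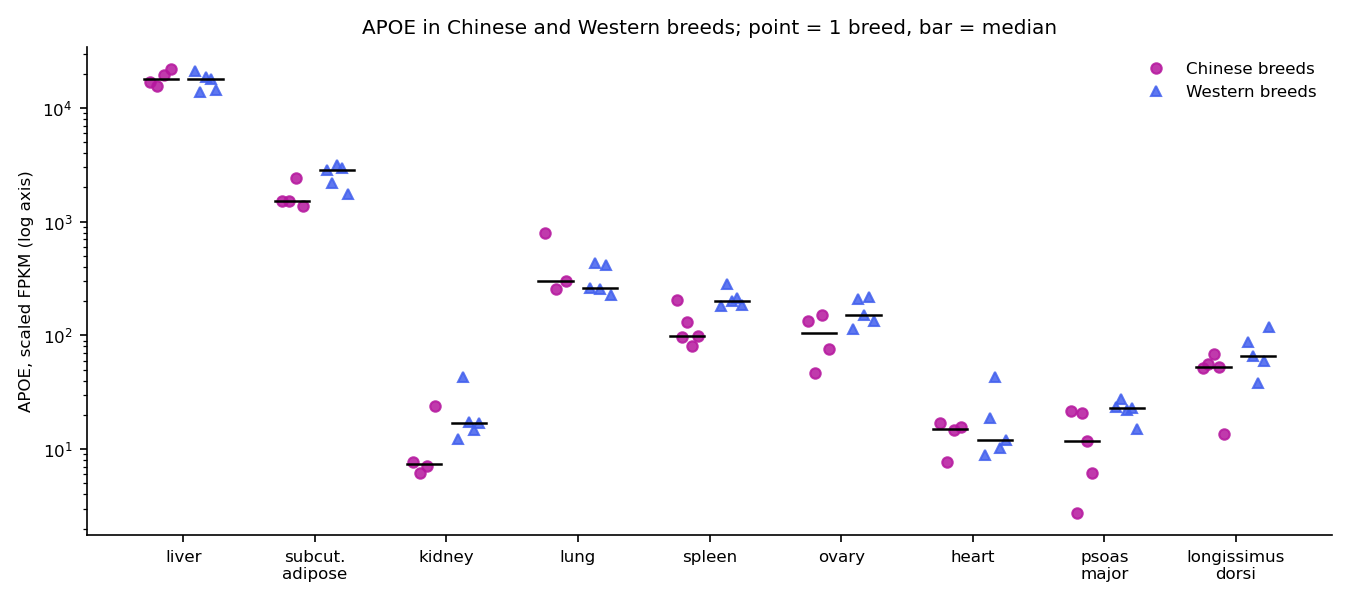
Scaled FPKM of APOE (log axis) by tissue in Chinese breeds (circles) and Western breeds (triangles); a point is 1 breed and a bar the median. In spleen, subcutaneous adipose, psoas major and kidney most Chinese breeds sit below most Western breeds, while in liver the groups overlap throughout, and none of the differences was called.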

How the data were processed

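The authors deposited FPKM values per Ensembl gene. The tools named in the submitters' processing notes are TopHat and Cufflinks 2.2.1, and the genome build named there is Sscrofa10.2. Per the labels' protocols total RNA was extracted with TRIzol and made into Illumina TruSeq RNA libraries. Annotation release, options and strand setting are not given in the sources used here. Summed FPKM per library ran from 519075 to 2196138, and 10175 to 14561 genes reached 1 FPKM. Depth is unknown.

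FPKM were divided by median-ratio factors over 12500 genes above 0 in all 92 libraries. Fits rescaled within their own libraries, kept genes that reached 1 FPKM in 3 libraries, and used limma 3.58.1 (R 4.3.3, trend and robust) on log2(scaled FPKM + 1). P-values are two-sided, with Benjamini-Hochberg adjustment over all genes of a fit and calls at adjusted p below 0.05. Breed was a block for tissues and for the muscles. Breeds pair libraries: psoas major and longissimus dorsi of a breed deviated together (correlation 0.325 to 0.532, 10 of 10 breeds matching best with their own). Correlations used exact permutations in liver and 100000 resamples in longissimus dorsi (scipy 1.17.1). Fits were tested on simulated data with independent noise and no breed effect. Between origins a log2 change of 1 was recovered in 89% of changed genes over 8 tissues and in 51% in liver. In the profile test, with the change placed in kidney, 56% were recovered.

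Of 161 listed symbols 114 were matched through gene names. Members and lists were chosen with earlier results of these data known. The text names the 4 genes, up to 5 called lipoprotein genes per direction and comparison by size of difference, and the 5 genes of highest Pearson r per member; the transcription factors, apolipoproteins, MTTP and CUBN levels named beyond that were chosen after their values were seen. A gene that this rule names is not reported here. Alternatives changed scaling, pseudocount, filter, limma options, zeros, block, threshold and, 1 at a time, breeds. P-values cover the spread between breeds with 1 library each, which may be technical in part.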

Additional observations from a re-analysis of the deposited data

Results flagged for a closer look

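In 4 of 33 groups of libraries tested, 1 library stood apart from the rest of its group by Dixon's criterion, where chance gives about 1.65. A group was tested if its highest value reached 1 scaled FPKM. APOC3 in heart and in spleen had 1 such library each, the one flagged, and 4 and 5 libraries at 0. These 2 groups thus entered through the flagged library, and the number given for chance does not hold for them. APOC3 was 3.81 scaled FPKM in the Hampshire heart, against 0 to 0.657 in the other hearts. APOC3 was 1.51 in the Meishan spleen, against 0 to 0.221 in the other spleens. Both values are far below any liver. APOE was 43.4 in the Landrace heart, against 7.69 to 18.7 in the others (median 13.3). APOE was 13.5 in longissimus dorsi of Tibetan wild boar, against 38.3 to 119 in the other breeds (median 59.1), in the library that also had the lowest hepatocyte sum of that muscle, 1.56.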

How the results depend on the processing

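In the main comparisons 331 results of the 4 genes under alternatives kept their direction and side of the threshold, 1 lost its call and 4 turned direction. The lost call was APOC3 in the mixtures under quantile normalization (0.29 log2). The count does not include the neighbouring tissues whose calls were lost with 1 breed left out. These were APOA1 in spleen against longissimus dorsi, in 4 of 10 fits, and APOC3 in subcutaneous adipose against longissimus dorsi, in 1 of 10. The turned results were APOC3 between origins, never called, at -0.023 under quantile normalization and -0.10 with a pseudocount of 0.1, and from -0.12 to 0.26 with 1 breed left out (below 0 without Large White or Meishan). With 1 breed left out APOE between origins ran from -0.40 to 0.13 in heart and from -0.14 to 0.69 in lung. ANGPTL4 and CEBPA in the mixtures turned to 0.071 and 0.84 against the mean of log2 values.

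APOA2 between the muscles has no value without Piétrain, Bamei or Jinhua or with the filter at 5 FPKM, since it then fails the filter.

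Counts moved more. Genes called for liver numbered 488 on FPKM as deposited and 419 with a log2 difference above 2, against 847. Between the muscles 983 genes were higher with a filter at 5 FPKM. With no replicate block 316 were higher and 329 lower, against 1536 and 1824. In the mixtures 1772 were higher and 12340 lower under quantile normalization, and 5592 higher against the mean of log2 values, against 3010 and 8217. Between origins 17 to 27 genes were higher with 1 breed left out, against 28, and 17 without Piétrain or Jinhua. The profile test called 202 with a pseudocount of 0.1, 255 with a filter at 5 FPKM and 264 (without Landrace) to 782 (without Meishan) with 1 breed left out, against 411. Counts between origins in single tissues also moved by over 1.5 times with 1 breed left out, in 1 direction or both in each tissue. Correlated pairs in liver ran from 0 to 4, against 2. The cause of these changes was not tested.

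On FPKM as deposited the median gene was shifted by -0.57 log2 between liver and spleen, -0.73 for lung, -0.47 for kidney, -0.29 for subcutaneous adipose and -0.90 for ovary, and the differences between tissues above are relative to scaled values. Quantile normalization moved the median of the mixtures to -0.36, against -0.13. Unknown depth limits values near 0.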
